A study of Mus musculus with 24 samples.

Results

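The 9 tumor necrosis factor (TNF) superfamily genes described here, 5 ligands and 4 receptors, were measured in mouse bone marrow-derived macrophages (BMDMs). They were taken by name: the ligands Tnf, Tnfsf9, Tnfsf10, Tnfsf13b and Tnfsf15, and the receptors Tnfrsf1a, Tnfrsf1b, Cd40 and Fas. These are 9 of the 22165 genes in the deposited table, and all 9 were among the 11878 genes tested. TNF superfamily ligands are mostly made as membrane proteins that bind as trimers, and some, TNF among them, are also cut free by proteases. Their receptors recruit TRAF adaptors or, where they carry a death domain, adaptors that can start cell death, and many of them lead to NF-κB activation. In macrophages, bacterial lipopolysaccharide (LPS), sensed through Toll-like receptor 4, is a classical inducer of Tnf, and cells that meet LPS again after a long first exposure make less TNF, a state called endotoxin tolerance.

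There were 24 BMDM libraries of 3′-end RNA-seq, 3 in each of 8 groups that cross 2 genotypes with 4 treatments. The genotypes were wild-type (WT) C57BL/6N mice and Irg1-/- mice on C57BL/6N, which lack Irg1 (Acod1), the enzyme that makes itaconate. The comparisons ask how a first and a second contact with LPS set the level of each gene, and whether that differs without Irg1. Bone marrow of mice aged 8 to 20 weeks was grown for 7 days with 20 ng/ml M-CSF in every group. Unstim. cells received no LPS, and LPS 24h cells received 100 ng/ml LPS for 24 h and were harvested at once. Tolerized cells (LPS 24h->LPS 3h) received LPS for 24 h, had the medium changed, rested for 1 h and then received LPS for 3 h. Non-tolerized cells (LPS 3h) went through the same steps without the first LPS, so that LPS 3h and LPS 24h differ in the handling of the cells as well as in the time after LPS. The Irg1-/- genotype is not limited to macrophages, and the WT mice were purchased.

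Libraries held 3927378 to 20430359 reads assigned to genes, with a median of 11539056. Acod1 checked the genotype labels: it stood at 3794 to 28063 normalized CPM (counts scaled to a common library size) in the 9 LPS-treated WT libraries and at 1.58 to 26.4 in the 9 LPS-treated Irg1-/- libraries, while the Unstim. groups overlapped. The 7 macrophage markers summed to 3242 to 9690 CPM. The listed T cell, B cell, NK cell and dendritic cell markers summed to at most 3.02 CPM in any library. The 5 neutrophil markers, carried by S100a8 and S100a9 with Ly6g, Mpo and Elane at no more than 3.25 CPM, summed to 338 to 613 CPM in the Unstim. and LPS 3h libraries and to 62.8 to 223 CPM in the libraries that had 24 h of LPS, and the 4 fibroblast markers to 244 to 414 and 94.4 to 222 CPM. Their part in the differences below was not tested. Fewer cells of a type and less RNA per cell cannot be told apart in such bulk libraries. A library pool here is the set of libraries that share a prefix in their sample descriptions. The labels do not say what the prefix stands for. All Unstim. libraries share 1 such pool. The WT LPS libraries are spread over 3 pools and the Irg1-/- LPS libraries over 3 in another arrangement.

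Promoter sequence was at hand for 7 of the 9 genes (RefSeq, build GRCm38.p6), and the 250 bases before each start were searched on both strands for an NF-κB site (GGGNNNTTCC), an interferon-response core (GAAANNGAAA) and a TATA box (TATAAA). The following 4 windows are shown because Tnf and Tnfsf15 had the largest log2 changes to LPS 3h among the 9 genes in both genotypes and because the other windows hold the remaining matches. Matches are in capitals, and each window ends at the base before the start.
Tnf, chr17:35202008-35202257, minus strand: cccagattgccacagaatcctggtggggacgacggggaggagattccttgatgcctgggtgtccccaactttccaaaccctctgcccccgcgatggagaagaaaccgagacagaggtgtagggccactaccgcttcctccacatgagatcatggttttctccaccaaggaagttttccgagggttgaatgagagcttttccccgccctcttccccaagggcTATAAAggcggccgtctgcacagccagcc
Tnfsf15, chr4:63745060-63745309, minus strand: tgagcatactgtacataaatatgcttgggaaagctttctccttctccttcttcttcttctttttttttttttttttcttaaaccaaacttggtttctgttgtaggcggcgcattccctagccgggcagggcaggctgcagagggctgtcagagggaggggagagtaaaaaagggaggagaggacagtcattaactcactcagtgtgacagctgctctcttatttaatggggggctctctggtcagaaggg
Tnfrsf1b, chr4:145246871-145247120, minus strand: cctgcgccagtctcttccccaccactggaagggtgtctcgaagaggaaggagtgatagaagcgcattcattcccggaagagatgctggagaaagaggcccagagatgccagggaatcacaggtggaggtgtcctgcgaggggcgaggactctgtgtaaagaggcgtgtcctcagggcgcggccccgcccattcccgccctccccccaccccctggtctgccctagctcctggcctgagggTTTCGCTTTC
Tnfsf13b, second start, chr8:10006383-10006632, plus strand: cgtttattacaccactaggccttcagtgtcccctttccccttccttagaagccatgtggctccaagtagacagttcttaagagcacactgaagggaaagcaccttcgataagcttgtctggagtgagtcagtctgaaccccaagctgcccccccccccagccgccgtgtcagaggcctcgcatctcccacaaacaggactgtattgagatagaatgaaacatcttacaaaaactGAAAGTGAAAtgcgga

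The Tnf window holds TATAAA from 29 to 24 bases before the start, which 12.4% of the 32851 mouse promoters searched also hold somewhere in their 250 bases. The interferon-response core lies from 10 to 1 bases before the Tnfrsf1b start, read on the opposite strand, and from 16 to 7 bases before the second Tnfsf13b start, and 2.98% of all promoters hold it. The NF-κB letters are in 4.65% of all promoters and in 0 of the 8 member windows. A match is a run of letters and not a known site. Its absence says nothing of sites farther away, nor of sites in the window whose letters differ from those searched.

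Most of the 9 genes were induced by LPS. In WT cells 7 of 9 rose from Unstim. to LPS 3h, against 15.8% of all genes tested that rose and 16.3% that fell (edgeR's quasi-likelihood test, Benjamini-Hochberg adjusted p under 0.05). The same count, 7 of 9, was found in Irg1-/- cells, against 17% higher and 18.9% lower over all genes. At LPS 24h, 7 of 9 were above Unstim. in WT cells (9.25% of all genes higher, 6.98% lower) and 6 of 9 in Irg1-/- cells (7.31% higher, 6.38% lower). No member was called lower than Unstim. in these comparisons. The median log2 change of the 9 genes from Unstim. to LPS 3h was 6.97 in WT and 6.59 in Irg1-/- cells, beside −0.18 and −0.20 over all genes. The comparisons with Unstim. in one genotype share the same 3 control libraries. Within the pool that holds the Unstim. libraries, the WT LPS 3h difference was 9.03 for Tnf, 11.67 for Tnfsf15 and 8.40 for Cd40 on the log2 scale. For Irg1-/- cells no LPS library shares that pool, so treatment and pool cannot be told apart there.

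**Figure D1:**
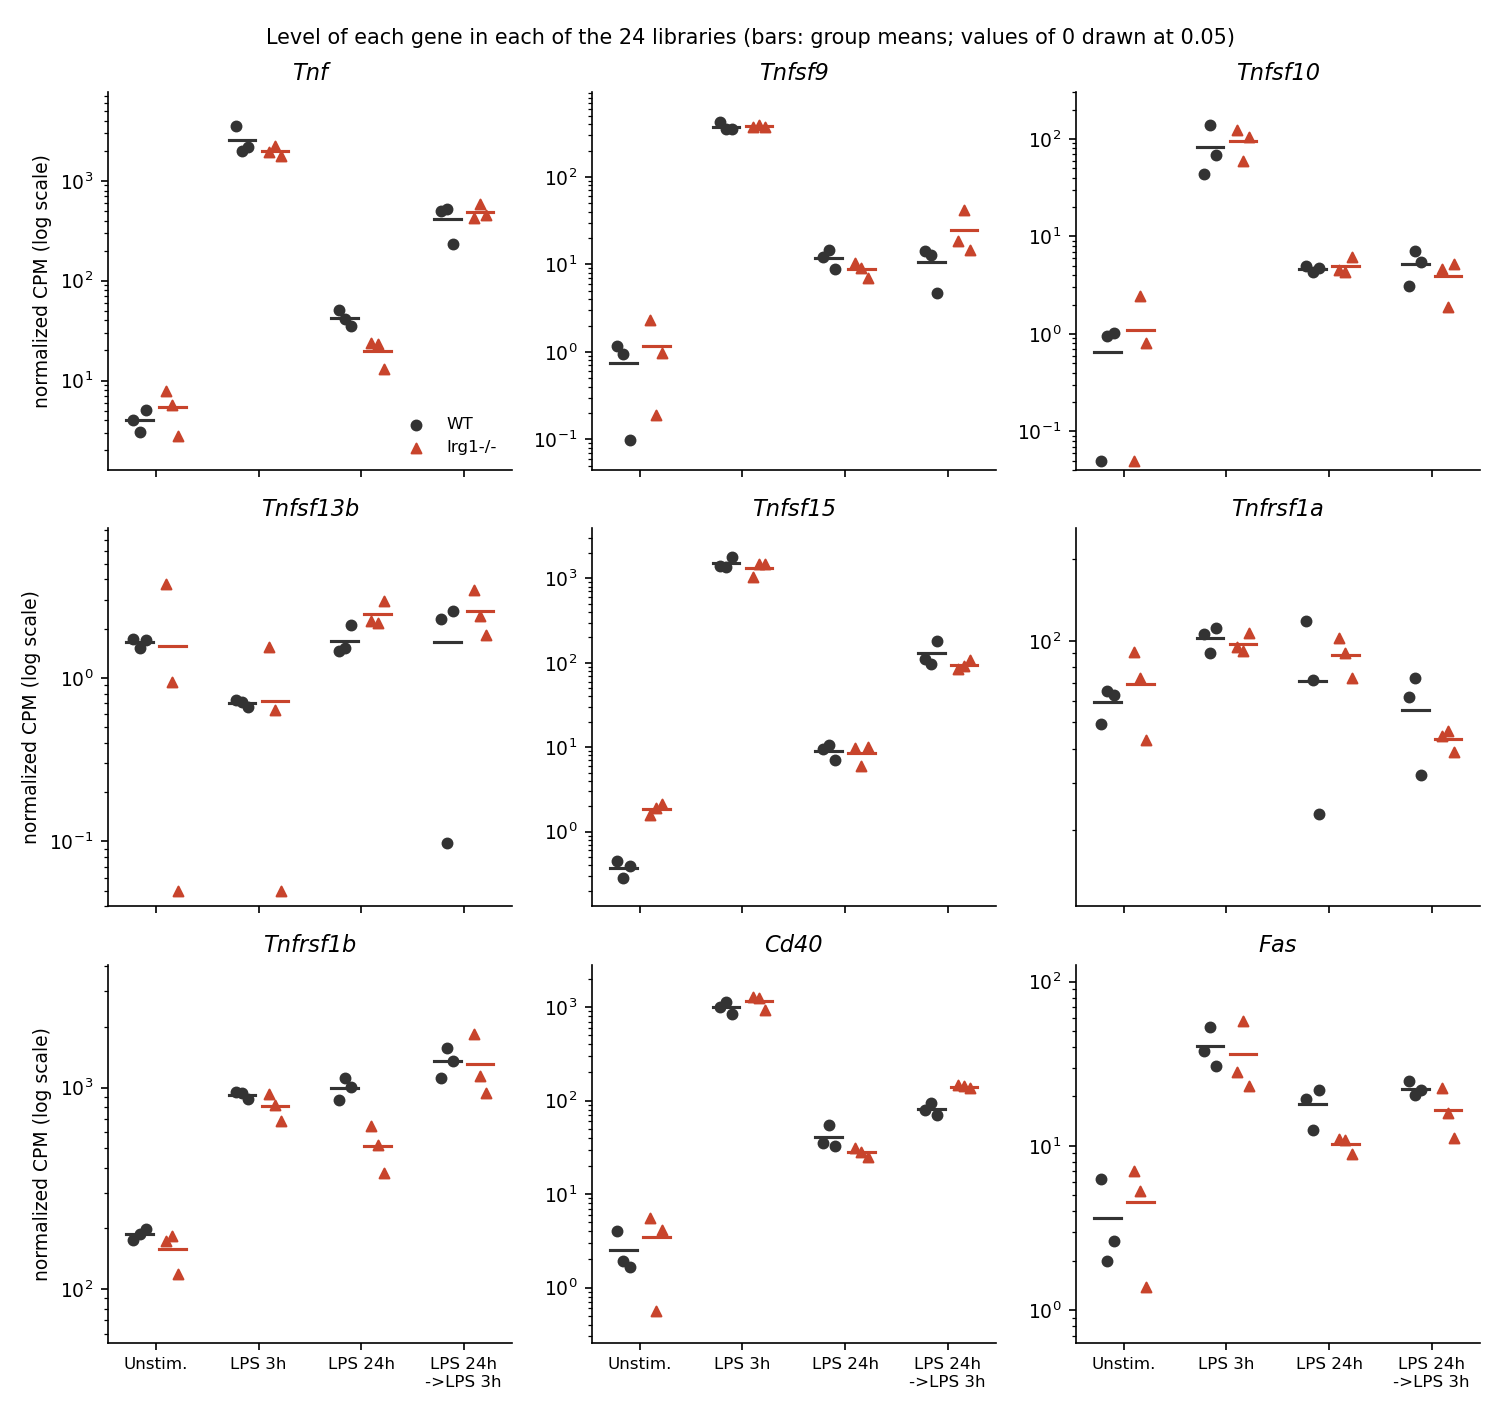
Normalized CPM (log axis) of each of the 9 genes in each of the 24 libraries, by treatment and genotype, with 1 point per library, a bar at the mean of each group of 3 and values of 0 drawn at 0.05. Tnf, Tnfsf15, Tnfsf9, Tnfsf10 and Cd40 peak at LPS 3h in both genotypes, and Tnfrsf1b stays high in every LPS-treated group.

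Among the ligands, Tnf (chr17:35199381-35202007, minus strand, GRCm38 as are all gene positions here), the cytokine that gives the family its name, stood at 4.06, 3.06 and 5.07 normalized CPM in the 3 WT Unstim. libraries and at 3524, 2012 and 2179 in the WT LPS 3h libraries. In Irg1-/- cells it went from 7.95, 5.65 and 2.78 to 1939, 2239 and 1758. Every LPS 3h library lay far above every Unstim. library, and the genotypes overlapped at both points. The log2 change was 9.29 ± 0.49 in WT (SE, adjusted p = 1.03e-15) and 8.55 ± 0.47 in Irg1-/- cells (adjusted p = 5.92e-15). At LPS 24h, Tnf was down to 50.5, 41.1 and 35.1 CPM in WT libraries and to 23.6, 23.1 and 13.1 in Irg1-/- libraries. Those levels still exceeded Unstim., by 3.36 ± 0.38 in WT (adjusted p = 4.49e-08) and by 1.91 ± 0.37 in Irg1-/- cells (adjusted p = 3.36e-04). With library pool as a term, the Irg1-/- difference was 1.17 and no longer passed (adjusted p = 0.105). In tolerized cells Tnf stood at 496, 520 and 234 CPM in WT and at 429, 592 and 454 in Irg1-/- libraries, between the LPS 24h and the LPS 3h groups with no overlap with either.

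Tnfsf15 (chr4:63727084-63745113, minus strand), which encodes TL1A, the ligand of death receptor Tnfrsf25, had the widest span. It was near the detection limit in WT Unstim. libraries, with 7, 3 and 8 reads (0.451, 0.286 and 0.390 CPM), and reached 1408, 1357 and 1780 CPM at LPS 3h. In Irg1-/- libraries it went from 1.56, 1.88 and 2.14 CPM to 1034, 1472 and 1473. The change was 11.91 ± 0.46 in WT (adjusted p = 2.12e-18) and 9.44 ± 0.41 in Irg1-/- cells (adjusted p = 8.28e-17). At LPS 24h the 6 libraries of both genotypes held 6.03 to 10.7 CPM, above Unstim. by 4.53 ± 0.38 in WT (adjusted p = 1.07e-10) and 2.18 ± 0.33 in Irg1-/- cells (adjusted p = 1.02e-05). Tolerized cells held 109.6, 98.0 and 183 CPM in WT and 85.5, 90.9 and 107.9 in Irg1-/- libraries. The receptor gene Tnfrsf25 had a single read over all 24 libraries.

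Tnfsf9 (chr17:57105325-57107757, plus strand) encodes the ligand of the T cell costimulatory receptor Tnfrsf9. Its WT levels were 1.16, 0.955 and 0.0975 CPM in Unstim. libraries, 425, 354 and 349 at LPS 3h, 12.1, 14.6 and 8.79 at LPS 24h, and 14.3, 12.8 and 4.76 in tolerized cells. The Irg1-/- levels were 2.34, 0.188 and 0.964 CPM, then 377, 393 and 372, then 10.4, 9.11 and 7.01, then 18.6, 41.7 and 14.6. The LPS 3h libraries of both genotypes thus stood apart from all others. The rise to LPS 3h was 9.06 ± 0.65 in WT (adjusted p = 1.13e-12) and 8.35 ± 0.64 in Irg1-/- cells (adjusted p = 4.67e-12), and LPS 24h remained above Unstim. by 4.07 ± 0.56 (adjusted p = 1.84e-06) and 2.92 ± 0.56 (adjusted p = 2.61e-04). The Irg1-/- difference at 24 h was 2.12 with library pool as a term and then missed the threshold (adjusted p = 0.0546). Tnfsf9 overlaps the long intergenic RNA Gm11110 on the other strand, and since the strand used in counting is not given in the sources used here, reads of the pair cannot be told apart.

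Tnfsf10, the gene of the death ligand TRAIL, (chr3:27317028-27342427, plus strand), was uneven between cultures at LPS 3h. It was at 0 to 1.02 CPM in WT and 0 to 2.45 CPM in Irg1-/- Unstim. libraries, and at 43.9, 138 and 69.2 CPM in WT and 124, 59.5 and 104 CPM in Irg1-/- libraries at LPS 3h. All 6 libraries at LPS 3h lay above all 18 others. The change was 6.97 ± 0.72 in WT (adjusted p = 2.68e-09) and 6.59 ± 0.72 in Irg1-/- cells (adjusted p = 9.23e-09). LPS 24h and tolerized libraries held between 1.89 and 7.02 CPM. The small excess of LPS 24h over Unstim. was called at 2.81 ± 0.66 in WT (adjusted p = 0.00242) and 2.33 ± 0.67 in Irg1-/- cells (adjusted p = 0.0159), but neither passed when the compared groups alone were fitted (adjusted p = 0.0550 and 0.0872). The Irg1-/- call was also lost without LPS 24h replicate 3 (2.14, adjusted p = 0.0575), without Unstim. replicate 1 (1.80, adjusted p = 0.0945) and without Unstim. replicate 3 (2.12, adjusted p = 0.0874).

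Tnfsf13b (chr8:10006467-10039072, plus strand) encodes BAFF, a survival factor for B cells. It had only 0 to 70 reads in any library and 0 to 3.74 CPM, and no comparison between treatments or genotypes called it. At LPS 3h it stood at 0.729, 0.711 and 0.662 CPM in WT libraries, below all 3 WT Unstim. libraries (1.53 to 1.74 CPM), with an adjusted p of 0.42.

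Among the receptors, Tnfrsf1a, the death-domain receptor through which TNF acts on most cell types, (chr6:125349362-125362484, plus strand) had the narrowest range of the well-counted genes. Its 24 values ran from 23.0 to 118 CPM. WT libraries held 49.3, 65.5 and 63.2 CPM in Unstim. and 106, 90.0 and 112 at LPS 3h. These groups did not overlap, and the difference of 0.79 ± 0.38 missed the threshold (adjusted p = 0.11), though it passed when only those 2 groups were fitted (adjusted p = 0.0142). WT LPS 24h libraries spread widely, at 118, 71.9 and 23.0 CPM. Tolerized Irg1-/- libraries held 44.7, 46.5 and 38.9 CPM, below the 95.1, 91.6 and 107 of Irg1-/- LPS 3h libraries by 1.17 ± 0.38 on the log2 scale (adjusted p = 0.0207). This call was lost with library pool as a term (−1.24, adjusted p = 0.107) and without tolerized Irg1-/- replicate 3 (−1.12, adjusted p = 0.0625).

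Tnfrsf1b (chr4:145213463-145246870, minus strand), the second TNF receptor, which lacks a death domain and binds TRAF2, behaved unlike the ligands. It went from 174, 188 and 198 CPM in WT Unstim. libraries to 954, 940 and 874 at LPS 3h, was at 871, 1111 and 1011 at LPS 24h, and at 1120, 1566 and 1357 in tolerized cells. Every WT library that had seen LPS thus lay above every Unstim. library, with no return towards the start at 24 h. In Irg1-/- cells the levels were 173, 183 and 119 CPM, then 934, 817 and 679, then 645, 519 and 378, then 1854, 1143 and 938. The rise to LPS 3h was 2.30 ± 0.29 in WT (adjusted p = 1.52e-07) and 2.36 ± 0.29 in Irg1-/- cells (adjusted p = 1.04e-07), and LPS 24h exceeded Unstim. by 2.42 ± 0.29 (adjusted p = 1.63e-07) and 1.70 ± 0.28 (adjusted p = 4.56e-05). Within a library, the ratio of Tnfrsf1b to Tnfrsf1a CPM, which is not a ratio of molecules, was 3.18 ± 0.33 in WT and 2.39 ± 0.45 in Irg1-/- Unstim. cells (SD, n = 3). It was 9.09 ± 1.31 and 8.37 ± 1.79 at LPS 3h and 27.3 ± 13.2 and 30.1 ± 9.89 in tolerized cells. At LPS 24h it was 5.75 ± 0.55 in Irg1-/- cells and ran from 7.36 to 43.9 in WT cells, where the low Tnfrsf1a value of replicate 3 gives the upper end.

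Cd40 (chr2:165055627-165072948, plus strand), the receptor for the T cell ligand CD40L, rose from 4.06, 1.91 and 1.66 CPM to 997, 1126 and 855 between WT Unstim. and LPS 3h (8.60 ± 0.51, adjusted p = 1.21e-14). Irg1-/- libraries went from 5.61, 0.565 and 4.18 to 1298, 1244 and 921 (8.33 ± 0.50, adjusted p = 2.96e-14). The genotypes overlapped in both conditions. LPS 24h libraries held 34.9, 55.1 and 32.6 CPM in WT and 31.1, 28.4 and 25.1 in Irg1-/- cells, above Unstim. by 4.00 ± 0.42 (adjusted p = 1.20e-08) and 2.98 ± 0.41 (adjusted p = 2.10e-06). Tolerized libraries held 79.9, 94.4 and 69.7 CPM in WT and 146, 142 and 137 in Irg1-/- cells.

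Fas (chr19:34290666-34327772, plus strand), the death receptor for Fas ligand, moved over a narrower range. WT libraries held 6.25, 2.00 and 2.63 CPM in Unstim., 38.1, 52.9 and 30.9 at LPS 3h, 19.2, 12.5 and 21.9 at LPS 24h and 24.8, 20.5 and 21.8 when tolerized. Irg1-/- libraries held 7.01, 5.28 and 1.39, then 28.1, 57.8 and 23.0, then 11.1, 10.9 and 8.88, then 22.5, 15.8 and 11.2. In both genotypes all LPS-treated libraries were above all Unstim. libraries. The rise to LPS 3h was 3.47 ± 0.48 in WT (adjusted p = 9.08e-07) and 3.06 ± 0.49 in Irg1-/- cells (adjusted p = 8.21e-06), and LPS 24h exceeded Unstim. by 2.29 ± 0.47 in WT (adjusted p = 5.04e-04). In Irg1-/- cells the latter difference of 1.24 ± 0.47 missed the threshold (adjusted p = 0.079) and passed with no filter (adjusted p = 0.0252), with a replicate block (adjusted p = 0.0373) and without Unstim. replicate 1 (1.74, adjusted p = 0.0322). The Fas ligand gene Fasl had 0 reads in all 24 libraries, where 3 reads per library is the level that a count of 0 allows.

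**Figure D2:**
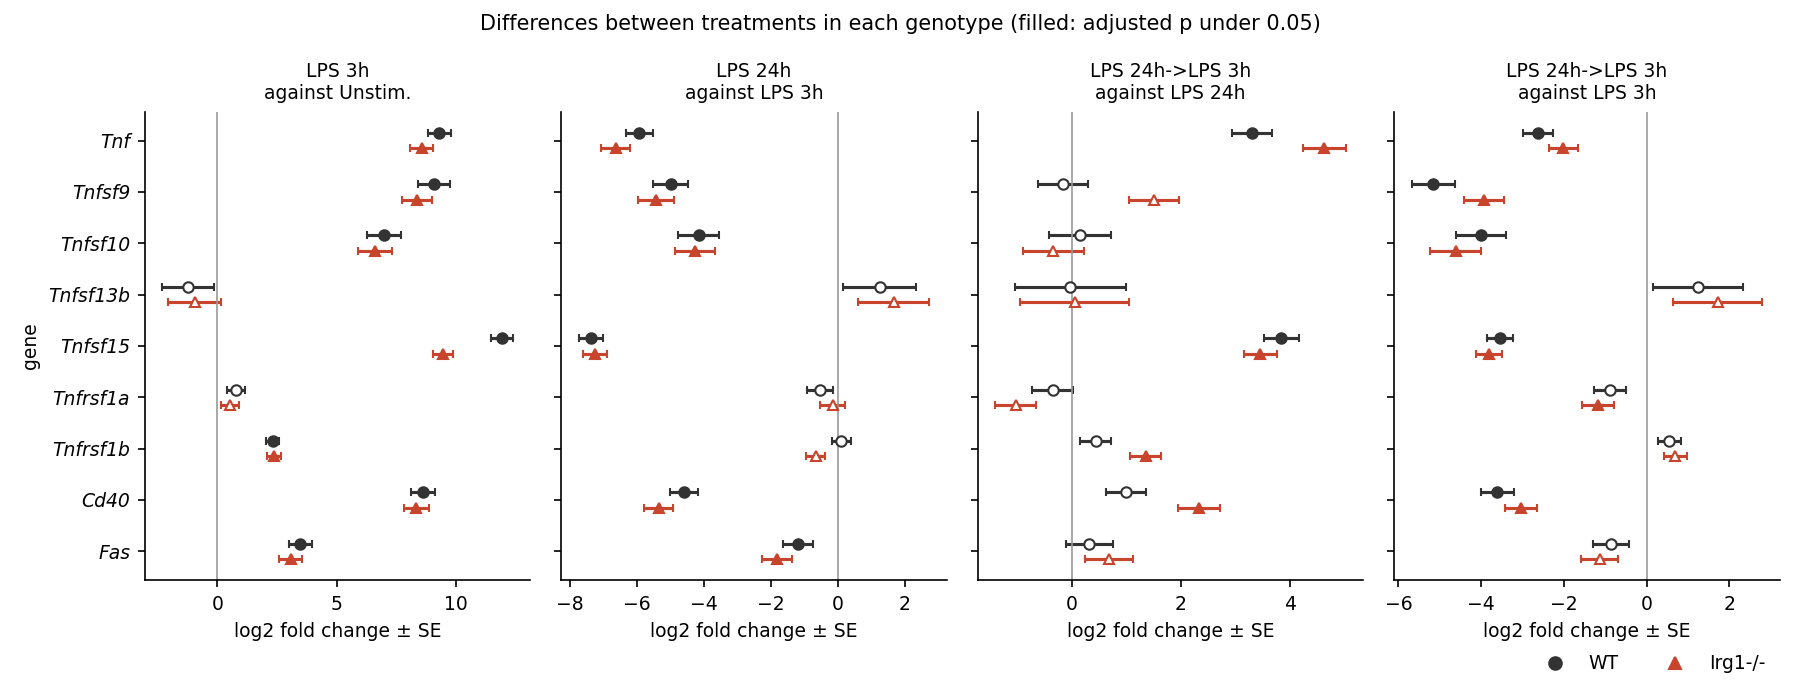
Log2 fold change of each of the 9 genes between treatments within WT and within Irg1-/- cells, with 1 point per gene and genotype, bars for ± SE and filled points for adjusted p under 0.05. Tnf, Tnfsf9, Tnfsf10, Tnfsf15 and Cd40 lie far to the right from Unstim. to LPS 3h and far to the left from LPS 3h to LPS 24h. In the latter, Tnfrsf1b lies at 0.11 in WT and at −0.66 in Irg1-/- cells, not called in either.

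From LPS 3h to LPS 24h, 6 of 9 genes were lower in WT cells, against 15.5% of all genes that were lower and 16.8% higher, and 6 of 9 in Irg1-/- cells, against 16.9% lower and 18.2% higher. Tnf differed by −5.93 ± 0.42 in WT (adjusted p = 4.34e-12) and −6.63 ± 0.43 in Irg1-/- cells (adjusted p = 4.63e-13), and Tnfsf15 by −7.38 ± 0.37 (adjusted p = 4.55e-15) and −7.26 ± 0.37 (adjusted p = 5.65e-15). Tnfsf9, Tnfsf10 and Cd40 had differences of −4.99, −4.16 and −4.60 in WT and of −5.43, −4.26 and −5.36 in Irg1-/- cells. Fas was lower by smaller amounts, −1.19 ± 0.44 in WT (adjusted p = 0.0387) and −1.82 ± 0.45 in Irg1-/- cells (adjusted p = 0.00201). With library pool as a term neither Fas difference passed (adjusted p = 0.0525 and −1.28 with adjusted p = 0.249). The WT call was also lost without LPS 24h replicate 1 (−1.28, adjusted p = 0.0615), without LPS 24h replicate 2 (−1.05, adjusted p = 0.127) and without LPS 3h replicate 2 (−1.01, adjusted p = 0.126). Within the 3 pools, the WT difference for Tnf lay between −6.12 and −5.61 and that for Fas between −2.06 and −0.49. Irg1-/- LPS 3h and LPS 24h libraries share no pool.

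Tnfrsf1b was not called from LPS 3h to LPS 24h in either genotype. In WT cells the groups overlapped (adjusted p = 0.79). In Irg1-/- cells all LPS 24h libraries were below all LPS 3h libraries, and the difference of −0.66 ± 0.28 missed the threshold (adjusted p = 0.065). It passed with DESeq2 size factors (adjusted p = 0.0319), by DESeq2's Wald test (adjusted p = 0.0111), with a mean of at least 10 counts (adjusted p = 0.0286) and with a replicate block (adjusted p = 0.0391). It also passed without LPS 24h replicate 1 (−0.88, adjusted p = 0.0398) and without LPS 3h replicate 3 (−0.84, adjusted p = 0.0382).

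The comparison of tolerized with non-tolerized cells, both harvested 3 h after their last LPS, asks how far an earlier exposure lowers each response. In WT cells 5 of 9 genes were lower in tolerized cells (13.1% of all genes lower, 12.4% higher), and in Irg1-/- cells 6 of 9 (14.1% lower, 13.1% higher). Tnf was lower by 2.63 ± 0.36 log2 units in WT (adjusted p = 1.89e-06) and by 2.01 ± 0.35 in Irg1-/- cells (adjusted p = 5.35e-05), so that its tolerized mean was 16.2% of the LPS 3h mean in WT and 24.8% in Irg1-/- cells. For Tnfsf15 the differences were −3.54 ± 0.31 (adjusted p = 1.01e-09) and −3.81 ± 0.31 (adjusted p = 2.19e-10), or 8.59% and 7.15% of the LPS 3h mean. Cd40 had −3.61 ± 0.40 (adjusted p = 5.41e-08) and −3.03 ± 0.39 (adjusted p = 5.98e-07), or 8.19% and 12.3%. In WT cells Tnfsf9 was lower by 5.15 ± 0.53 (adjusted p = 1.45e-08, 2.82%) and Tnfsf10 by 4.00 ± 0.60 (adjusted p = 8.66e-06, 6.20%). Their Irg1-/- differences were −3.93 ± 0.50 (adjusted p = 4.44e-07, 6.56%) and −4.61 ± 0.62 (adjusted p = 1.25e-06, 4.09%).

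The receptors other than Cd40 stood at a higher percent of their LPS 3h level in tolerized cells than Cd40 and the ligands above. That percent includes the level without LPS. For Tnfrsf1a, whose rise to LPS 3h was not called, the Unstim. mean was already 57.9% in WT and 70.7% in Irg1-/- cells. It was 20.3% and 19.5% for Tnfrsf1b and 8.94% and 12.6% for Fas. Tnfrsf1b stood at 146% of the LPS 3h mean in WT and 162% in Irg1-/- cells, and all tolerized libraries were above all LPS 3h libraries in both genotypes. Neither excess passed the test, with an adjusted p of 0.15 in WT and a difference of 0.70 ± 0.28 (adjusted p = 0.061) in Irg1-/- cells. The latter passed with a replicate block (adjusted p = 0.0428) and without tolerized replicate 3 (0.87, adjusted p = 0.0366). Fas stood at 55.0% and 45.4%, again without overlap and without passing (adjusted p = 0.15 in WT, and −1.14 ± 0.44 with adjusted p = 0.053 in Irg1-/- cells). The Irg1-/- Fas difference passed with DESeq2 size factors (adjusted p = 0.0343), by DESeq2's Wald test (adjusted p = 0.0239), with no filter (adjusted p = 0.0212), with a mean of at least 10 counts (adjusted p = 0.0409), with the compared groups alone (adjusted p = 0.0280) and with a replicate block (adjusted p = 0.0334). It also passed without tolerized replicate 1 (−1.46, adjusted p = 0.0415), without LPS 3h replicate 1 (−1.32, adjusted p = 0.0467) and without LPS 3h replicate 3 (−1.40, adjusted p = 0.0338). Tnfrsf1a was at 54.2% in WT (−0.88 ± 0.38, adjusted p = 0.084) and 44.3% in Irg1-/- cells, the latter called as given above. The WT difference passed with library pool as a term (−1.04, adjusted p = 0.0294), with a replicate block (adjusted p = 0.0442), by DESeq2's Wald test (adjusted p = 0.0398) and with no filter (adjusted p = 0.0471). Within pools, the WT difference for Tnf lay between −3.22 and −1.95, that for Tnfsf15 between −3.79 and −3.28 and that for Cd40 between −3.64 and −3.57. In the single pool that holds both Irg1-/- groups they were −2.18, −3.59 and −3.16.

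**Figure D3:**
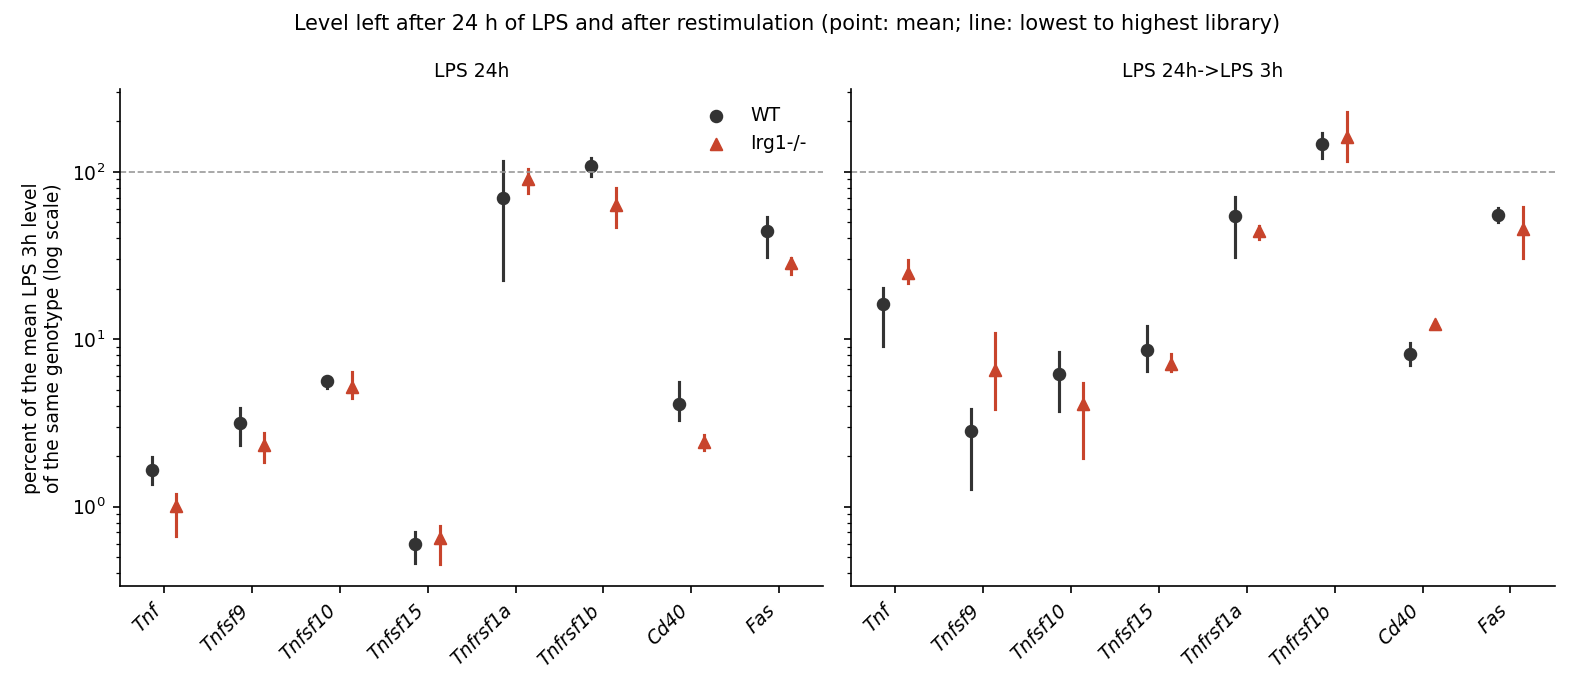
Level of 8 of the 9 genes (the low-count Tnfsf13b is left out) in LPS 24h and tolerized (LPS 24h->LPS 3h) libraries as a percent of the mean LPS 3h level of the same genotype (log axis), with a point at the mean of 3 libraries and a line from the lowest to the highest library. Tnf stood at 16.2% in WT and 24.8% in Irg1-/- cells after the second LPS and at 1.64% and 1.01% at LPS 24h, whereas Tnfrsf1b stood at 146% and 162%.

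Tolerized against LPS 24h cells gives the levels after and before the second LPS. Tolerized cells also had the medium change, the 1 h rest and a longer culture, which cannot be told apart from the second LPS. In WT cells 2 of 9 genes were higher in tolerized cells (2.46% of all genes higher, 1.53% lower), and in Irg1-/- cells 4 of 9 (3.44% higher, 1.7% lower). Tnf and Tnfsf15 were called in both genotypes: Tnf by 3.30 ± 0.37 in WT (adjusted p = 6.64e-07) and 4.62 ± 0.39 in Irg1-/- cells (adjusted p = 1.60e-09), and Tnfsf15 by 3.84 ± 0.32 (adjusted p = 3.69e-09) and 3.45 ± 0.31 (adjusted p = 3.22e-09). Within pools the WT values were 2.73 to 3.66 for Tnf and 3.17 to 4.68 for Tnfsf15, and in the single pool with both Irg1-/- groups 4.74 and 3.53. The other called genes were Cd40 (2.33 ± 0.38, adjusted p = 1.01e-04) and Tnfrsf1b (1.35 ± 0.28, adjusted p = 0.00219) in Irg1-/- cells.

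In WT cells the Cd40 difference was 0.99 ± 0.37 (adjusted p = 0.135), positive within all 3 pools (0.78 to 1.19) and called by DESeq2's Wald test (adjusted p = 0.0327). Tnfrsf1b in WT cells had an adjusted p of 0.47 although its tolerized libraries lay above its LPS 24h libraries. Tnfsf9 was not called in WT cells (adjusted p = 0.92) and reached 1.499 ± 0.46 in Irg1-/- cells (adjusted p = 0.0506), just short of the threshold. It passed by DESeq2's Wald test (adjusted p = 0.0118), with no filter (adjusted p = 7.11e-04), with a mean of at least 10 counts (adjusted p = 0.0437), with the compared groups alone (adjusted p = 0.0194), with a replicate block (adjusted p = 0.0283) and with library pool as a term (adjusted p = 0.0464). It also passed without tolerized replicate 1 (1.72, adjusted p = 0.0479) and without tolerized replicate 3 (1.80, adjusted p = 0.0289). Tnfsf10, Tnfsf13b and Fas were not called in either genotype (adjusted p from 0.52 to 1.00). Tnfrsf1a in Irg1-/- cells was the one receptor whose tolerized libraries all lay below its LPS 24h libraries (−1.03 ± 0.38, adjusted p = 0.13), a difference that passed with no filter (adjusted p = 0.0467) and with the compared groups alone (adjusted p = 0.0186). The difference between the genotypes in tolerized against LPS 24h cells was tested by itself. It passed for 0 of 9 genes, against 0.00842% of all genes. At an unadjusted p under 0.05 there were 4 of 9, beside 1029 of all 11878 genes. These were Tnf (1.32 ± 0.48, adjusted p = 0.38), Tnfsf9 (1.66 ± 0.65, adjusted p = 0.43), Cd40 (1.34 ± 0.51, adjusted p = 0.42) and Tnfrsf1b (0.92 ± 0.39, adjusted p = 0.49), all towards a larger step in Irg1-/- cells, and DESeq2 called 0. The difference between genotypes in tolerized against LPS 3h cells was called for 0 of 9 members and for 0% of all genes, with 0 members at an unadjusted p under 0.05 and 0 called by DESeq2.

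Direct comparison of Irg1-/- with WT cells within a treatment gave few differences in the 9 genes. In Unstim. cells 1 of 9 was called, against 0.0421% of all genes. This was Tnfsf15, at 1.56, 1.88 and 2.14 CPM in Irg1-/- and 0.451, 0.286 and 0.390 CPM in WT libraries (2.27 ± 0.41, adjusted p = 0.0184). It was also the only member whose Unstim. groups did not overlap, which 9.44% of all genes did not. All these libraries share 1 pool, and the values rest on 10, 10 and 40 reads against 7, 3 and 8. The call did not hold when only the Unstim. libraries were fitted (adjusted p = 1.00). It was lost without Irg1-/- replicate 2 (2.28, adjusted p = 0.0536), Irg1-/- replicate 3 (2.12, adjusted p = 0.0989) and WT replicates 1 (2.40, adjusted p = 0.155), 2 (2.16, adjusted p = 0.123) and 3 (2.29, adjusted p = 0.106). At LPS 3h, 0 of 9 genes were called (0.00842% of all genes), 0 had an unadjusted p under 0.05, DESeq2 called 0, and the groups overlapped for all 9, while 9.08% of all genes had no overlap.

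At LPS 24h edgeR called 0 of 9 between the genotypes (0.598% of all genes), and 2 had an unadjusted p under 0.05, as did 1195 of all 11878 genes. They were Tnf (−1.08 ± 0.34, adjusted p = 0.18) and Tnfrsf1b (−0.96 ± 0.28, adjusted p = 0.13). DESeq2's Wald test called these 2 (adjusted p = 0.0490 and 0.0161). In Tnf, Tnfrsf1b, Cd40 and Fas every Irg1-/- library was below every WT library, and in Tnfsf13b every one was above, so that 5 of 9 groups did not overlap, against 16.5% of all genes. With 3 against 3 libraries an exact permutation test of a single gene cannot go below p = 0.1. All Irg1-/- LPS 24h libraries came from 1 pool, and against the WT library of that pool the differences were −1.38 for Tnf, −0.79 for Tnfrsf1b, −0.31 for Cd40 and −0.90 for Fas.

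In tolerized cells 0 of 9 genes were called between the genotypes (0.118% of all genes), and DESeq2 also called 0. An unadjusted p under 0.05 was found for 936 of all 11878 genes and for 2 of the 9, Tnfsf9 (1.24 ± 0.46, adjusted p = 0.41) and Cd40 (0.80 ± 0.36, adjusted p = 0.57). These were also the 2 of 9 genes in which every Irg1-/- library was above every WT library, and 12.9% of all genes did not overlap. Within the 2 pools that hold both genotypes, Cd40 differed by 0.80 and 0.62 and Tnfsf9 by 0.78 and 0.54. Averaged over the 4 treatments, 0 of 9 genes differed (0.303% of all genes), 2 had an unadjusted p under 0.05, as did 1068 of all 11878 genes, and DESeq2 called 0. Those 2 were Tnfsf15 (0.39 ± 0.16, adjusted p = 0.43) and Tnfrsf1b (−0.36 ± 0.14, adjusted p = 0.40).

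**Figure D4:**
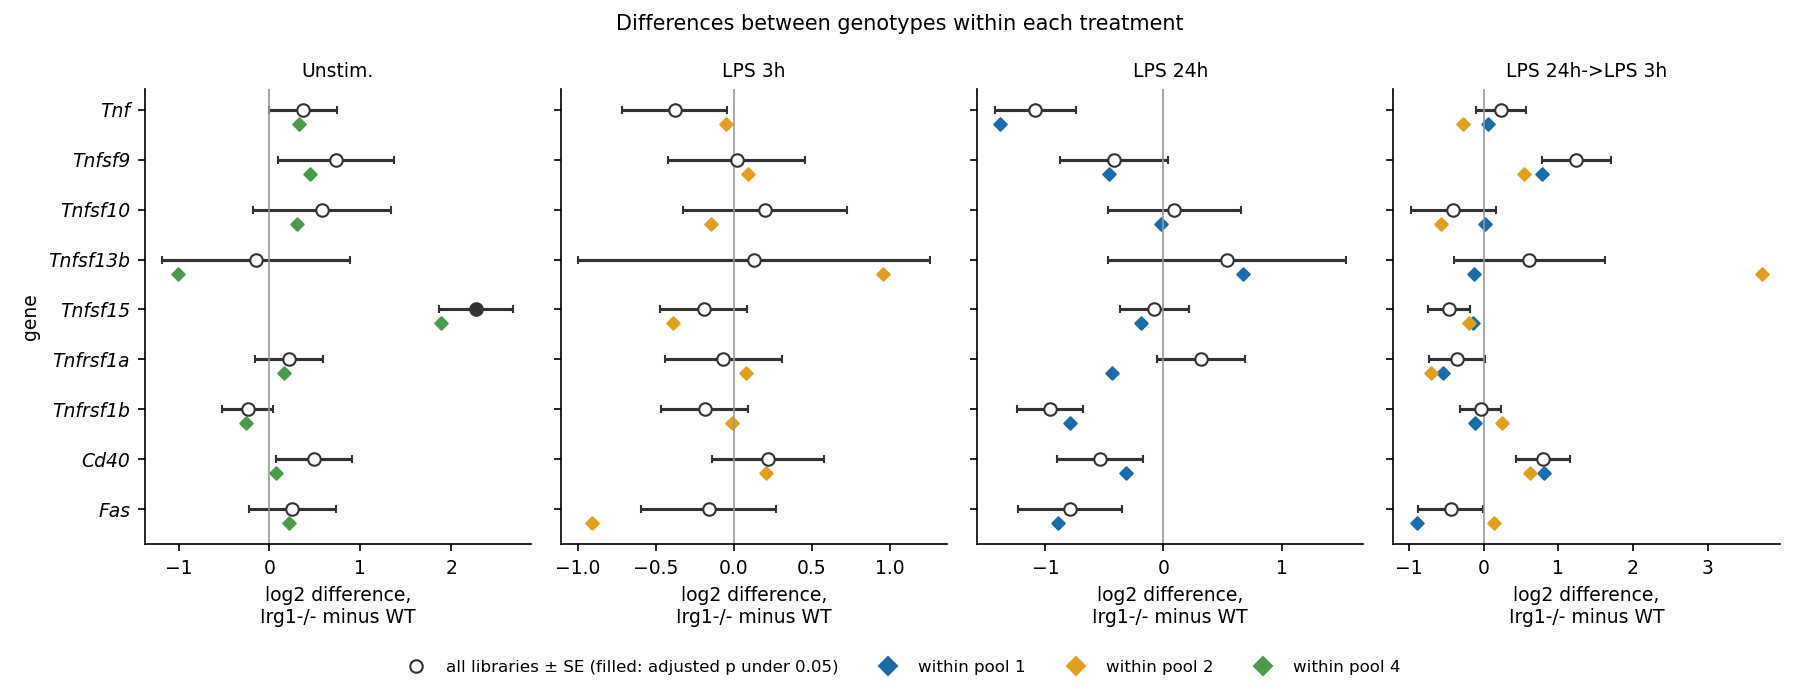
Log2 difference between Irg1-/- and WT cells for each of the 9 genes in each treatment, with a circle and ± SE for all libraries, filled at adjusted p under 0.05, and diamonds for the difference within each library pool that holds both genotypes. Tnfsf15 in Unstim. cells is the 1 filled circle (2.27), and Cd40 lies left of 0 at LPS 24h (−0.54) and right of 0 in tolerized cells (0.80).

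Part of the rest of the family had too few reads to be tested. Of 13 further ligand genes 5 passed the filter on low counts, and of 24 further receptor genes 17. From WT Unstim. to LPS 3h, 3 of the 5 ligands rose and 1 fell, beside 15.8% and 16.3% of all genes. Those that rose were Tnfsf4, Tnfsf8 and Lta, all with 0 reads in the 3 WT Unstim. libraries and at 18.4 ± 3.28, 4.76 ± 1.39 and 2.25 ± 1.56 CPM at LPS 3h (SD, n = 3). The filter keeps a low-count gene through the groups where it is high, and these 3 were highest at LPS 3h. The count of 3 of 5 therefore cannot be read against the share of all genes. Tnfsf4, which encodes OX40 ligand, was at 2.53 ± 0.30 CPM at LPS 24h and 0.991 ± 0.61 in tolerized WT cells. Of the 17 receptors 3 rose and 1 fell from Unstim. to LPS 3h in each genotype, a share of rises near that over all genes (15.8% in WT and 17% in Irg1-/- cells). Tnfrsf9, the receptor of the Tnfsf9 product, had 0 reads in all 6 Unstim. libraries and stood at 1.76 ± 0.30 CPM in WT LPS 3h cells. Tnfrsf14, a receptor of the LIGHT ligand, was higher at LPS 24h (133.9 ± 117 CPM, SD over 3 uneven libraries) than in Unstim. WT cells (2.91 ± 0.53, adjusted p = 1.18e-04) and lower after the second LPS (−2.04 ± 0.51, adjusted p = 0.0170). In Irg1-/- cells Tnfrsf14 was not called in either comparison, and its mean was 41.9 ± 22.1 CPM at LPS 24h and 102.5 ± 57.0 in tolerized cells (1.29 ± 0.50, adjusted p = 0.16). Between genotypes 0 of the 17 receptors were called at LPS 24h or in tolerized cells (0.598% and 0.118% of all genes). The difference between genotypes in tolerized against LPS 24h cells was also called for 0 of 17 (0.00842% of all genes). Tnfrsf11b, which encodes the decoy receptor osteoprotegerin, fell to 0.200 ± 0.25 CPM at WT LPS 24h from 3.48 ± 0.66 in Unstim. cells (adjusted p = 0.0105).

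Genes that act below the receptors were counted in the same way. Of 25 signalling genes, 12 rose and 2 fell from Unstim. to LPS 3h in WT cells (median log2 change 0.87, beside −0.18 over all genes), and 13 rose and 1 fell in Irg1-/- cells (0.95, beside −0.20). Over all genes 15.8% and 17% rose, and 16.3% and 18.9% fell. The largest rises in WT cells were those of Traf1, a TRAF adaptor (6.64 ± 0.43, adjusted p = 8.82e-14), Tnfaip3, which encodes the NF-κB inhibitor A20 (6.58 ± 0.51, adjusted p = 4.82e-12), and Cflar, an inhibitor of caspase-8 (4.97 ± 0.32, adjusted p = 9.30e-14). From LPS 3h to LPS 24h, 11 of 25 fell and 3 rose in WT cells (15.5% and 16.8% of all genes), and 11 fell and 1 rose in Irg1-/- cells (16.9% and 18.2%). After the second LPS 4 of 25 were higher in each genotype (2.46% of all genes in WT and 3.44% in Irg1-/- cells), Traf1 among them (2.09 ± 0.35 in WT, adjusted p = 2.47e-04, and 3.72 ± 0.37 in Irg1-/- cells, adjusted p = 2.36e-08). The difference between the genotypes in this step was called for 0 of 25 (0.00842% of all genes). Traf1 was also the 1 of 25 signalling genes called between genotypes at LPS 24h, beside 0.598% of all genes. It stood at 36.7 ± 5.27 CPM in Irg1-/- and 100.2 ± 5.21 in WT cells (−1.45 ± 0.34, adjusted p = 0.0371). All Irg1-/- LPS 24h libraries came from 1 pool, and no within-pool value was computed for Traf1. No signalling gene was called between genotypes in the other treatments by edgeR.

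Of 7 genes for the release of TNF from the membrane and the decay of Tnf mRNA, 5 rose and 2 fell from Unstim. to LPS 3h in each genotype. Over all genes 15.8% rose and 16.3% fell in WT cells, and 17% rose and 18.9% fell in Irg1-/- cells. Zc3h12a, an RNase that degrades inflammatory mRNAs, rose by 3.60 ± 0.33 in WT cells (adjusted p = 2.17e-10). Zfp36, which encodes tristetraprolin, a protein that binds AU-rich elements and destabilizes Tnf mRNA, rose by 3.57 ± 0.34 (adjusted p = 5.04e-10), and Rhbdf2, a partner of the protease ADAM17, by 3.37 ± 0.32 (adjusted p = 4.36e-10). From LPS 3h to LPS 24h Zfp36 fell by 2.37 ± 0.32 log2 units in WT (adjusted p = 1.08e-06) and by 3.65 ± 0.34 in Irg1-/- cells (adjusted p = 7.51e-10). After the second LPS, 0 of 7 were higher and 1 lower in WT cells (2.46% and 1.53% of all genes), and 3 were higher and 1 lower in Irg1-/- cells (3.44% and 1.7%). The difference between the genotypes in this step was called for 0 of 7 (0.00842% of all genes). The lower gene in both was Zfp36l1, another AU-rich element binding protein (−2.68 ± 0.34, adjusted p = 6.46e-06, and −2.08 ± 0.33, adjusted p = 8.39e-05).

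The genes whose levels ran most like each member over the 24 libraries are given as a description, since the libraries share their treatments. Tnf was most like Ccrl2 (Pearson r = 0.992 of log2 CPM), Ccl3 and Marcksl1, and Tnfsf15 most like Sdc4 (0.981), Peli1 and Marcksl1. Tnfsf9 was most like another member, Cd40 (0.974), and Cd40 most like Nfkbiz (0.988), Cflar and Kdm6b. Tnfsf10 was closest to Zeb1 (0.948), Tnfrsf1b to Cebpb (0.957), Fas to Psme2 (0.925) and Tnfrsf1a to Anxa6 (0.898). The low-count Tnfsf13b reached no more than 0.747, with Slc5a6.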

How the data were processed

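RNA of BMDMs was measured by 3′-end digital gene expression with oligo-dT primers that carry a sample barcode and no unique molecular identifier, so reads are not independent molecules. The authors deposited whole-number read counts per gene for the 24 libraries in one table. The submitters' processing notes name STAR and the build mm10; the counting program, annotation and strand setting are not given in the sources used here. The 5 summary lines of the table were left out of library sizes (no feature 22.1% to 33.7%, ambiguous 0.254% to 0.441% and not unique 15.1% to 22.5% of a library). All columns matched a sample.

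Groups came from the sample titles. Genes passing edgeR's filterByExpr (11878) were scaled by TMM and fitted over all 24 libraries with 1 mean per group by edgeR's quasi-likelihood test (edgeR 4.0.16, limma 3.58.1, R 4.3.3). Calls used a Benjamini-Hochberg adjusted p under 0.05 over all genes tested, every test was two-sided, SE is the log2 fold change divided by the square root of F, and normalized CPM are edgeR's CPM of the TMM-scaled library. Values after ± are SE for log2 differences and SD for levels. Replicates are separate cultures, so p-values measure the spread between cultures. Libraries of a group differed by far more than sampling noise. Gene positions came from GENCODE M21, which named 21745 of the 22165 genes, and promoter sequences from RefSeq. The scripts were tested on simulated data.

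The 9 genes are all named, with up to 3 called genes of largest change per list and comparison and the 3 genes of highest Pearson correlation per member (log2 CPM, prior count 2). The members, lists and comparisons were chosen with earlier results of these data known. Alternatives were DESeq2 size factors, DESeq2 1.42.0's Wald test, no filter, a mean of at least 10 counts, the compared groups alone, a replicate block, library pool as a term, and leaving out each library. The replicate numbers did not pair the libraries. Floors and shares cover counting error only.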

Additional observations from a re-analysis of the deposited data

Results flagged for a closer look

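Cd40 stood on opposite sides in 2 treatments. At LPS 24h every Irg1-/- library (25.1 to 31.1 CPM) was below every WT library (32.6 to 55.1 CPM), a log2 difference of −0.54, and in tolerized cells every Irg1-/- library (136.8 to 146 CPM) was above every WT library (69.7 to 94.4 CPM), a difference of 0.80. Neither passed by edgeR's quasi-likelihood test (adjusted p = 0.70 and 0.57). Over all genes 16.5% at LPS 24h and 12.9% in tolerized cells did not overlap between the genotypes. All Irg1-/- LPS 24h libraries came from 1 pool, and against the 1 WT library of that pool Cd40 differed by −0.31. Within the 2 pools that hold both genotypes in tolerized cells it differed by 0.80 and 0.62. The change between the 2 treatments, tested as a difference between genotypes, was 1.34 ± 0.51 (SE) and did not pass either (adjusted p = 0.42). With 3 libraries a group, no test for a single outlying library was made.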

How the results depend on the processing

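Of 250 alternative counts of called members over 17 comparisons, 242 were within 1.5 times the reported count. The exceptions concerned the genotypes. In Unstim. cells the count was 0 instead of 1 when only the compared groups were fitted and 0 to 1 with a library left out. At LPS 24h DESeq2's Wald test called 2 instead of 0, and in tolerized cells 1 instead of 0 was called with no filter on low counts (Tnfsf9). With a library left out, the count was 5 to 6 in WT LPS 24h against LPS 3h, 5 to 6 in Irg1-/- LPS 24h against Unstim., 6 to 7 in Irg1-/- LPS 24h against LPS 3h and in Irg1-/- tolerized against LPS 3h, and 4 to 5 in Irg1-/- tolerized against LPS 24h. Of 57 called differences, 49 stayed called in every alternative, and of 741 alternative values 721 were called and 0 had the opposite sign. Of 19 uncalled differences with an unadjusted p under 0.05, 12 were called in at least 1 alternative. The cause was not tested.

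With the replicate number as a replicate block, 8 instead of 6 members were called in Irg1-/- tolerized against LPS 3h, 7 instead of 6 in Irg1-/- LPS 24h against Unstim. and against LPS 3h, 5 instead of 4 in Irg1-/- tolerized against LPS 24h and 6 instead of 5 in WT tolerized against LPS 3h. The numbers do not pair the libraries: in 0 of 28 pairs of groups did all 3 same-numbered correlations exceed 0.1 (range −0.15 to 0.39), and in 1 pair every library correlated best with its own number. With library pool as a term, the called members numbered 4 in Irg1-/- LPS 24h against Unstim. and 5 in Irg1-/- LPS 24h against LPS 3h, in Irg1-/- tolerized against LPS 3h and in WT LPS 24h against LPS 3h, each instead of 6. They numbered 6 instead of 5 in WT tolerized against LPS 3h and 5 instead of 4 in Irg1-/- tolerized against LPS 24h.

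Counts were low for Tnfsf13b in every group and for Tnfsf15, Tnfsf9, Tnfsf10, Cd40 and Fas in Unstim. cells. The 3′ libraries give no protein, isoform or surface level, and Irg1-/- comparisons with Unstim. share no library pool. With DESeq2 size factors in place of TMM, the median over all genes moved by −0.11 in Irg1-/- LPS 24h against LPS 3h and in Irg1-/- tolerized against LPS 3h.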
